A study of Mus musculus with 6 samples.

Results

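The 48 genes described here encode the Wnt ligands, their receptors, their secreted antagonists and the core of the intracellular Wnt relay, among 53465 Ensembl genes counted in 6 mouse liver tumour cell lines. They were chosen by symbol alone: every row named Wnt, frizzled (Fzd), Dickkopf (Dkk1 to Dkk4) or secreted frizzled-related protein (Sfrp), together with Wif1, Axin1, Axin2, Lef1, Tcf7, Tcf7l1, Tcf7l2, Ctnnb1, Apc, Rnf43 and Znrf3. By role they are 19 ligands, 10 receptors, 2 receptor ligases, 9 secreted antagonists, 4 genes of the destruction complex and beta-catenin, and 4 TCF/LEF factors. No row carries the name Sfrp3, since that protein is listed as Frzb, which the rule does not take.

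Wnt ligands are secreted lipid-modified proteins that bind frizzled receptors, which the ligases Rnf43 and Znrf3 remove from the cell surface. In the canonical branch, binding stops a complex of Apc and the axins from marking beta-catenin (Ctnnb1) for destruction, and beta-catenin then switches on targets such as Axin2 with TCF/LEF factors. Sfrp proteins and Wif1 trap ligands outside the cell, while most Dickkopf proteins block the co-receptors. In the healthy liver, Wnts made by endothelial cells around the central vein set the gene programme of nearby hepatocytes, and beta-catenin is a frequent oncogene in liver cancer.

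RNA was sequenced from 3 Myc_Utx cell lines (2A, 2B and 2D) and 3 Myc_p53 cell lines (1, 2 and 3), each grown from the liver tumour of a different C57BL/6 mouse. Per the study's methods, tumours were started in young adult females by tail vein delivery of a Myc transposon under the EF1a promoter with Cas9 and a guide RNA, against Kdm6a (UTX, a histone H3K27 demethylase) in the first group and against the p53 gene in the second. The lines were cultured without further treatment in serum-containing medium on collagen. All 6 carry the Myc transgene, and no line with Myc and neither edit was analysed here, so loss of Kdm6a and presence of p53 cannot be told apart in this comparison.

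Reads were counted per gene without normalization, with total counts of 4656103 to 5473042 per Myc_Utx line and 5370608 to 6937497 per Myc_p53 line. At this depth a count of 0 allows up to 3 counts, or 0.428 to 0.668 CPM (read counts scaled to equal library size) depending on the line. The mRNA of Kdm6a itself was 44.8 ± 4.72 (SD, n = 3) against 58.8 ± 14.4 (SD, n = 3) TMM-normalized CPM, with overlapping groups (log2 fold change -0.39, edgeR adjusted p = 0.243). The mRNA level gives no measure of the protein. The paper reports indels in Kdm6a and loss of its protein in cell lines derived from such tumours. The labels give the source as liver cells, yet hepatocyte markers were near 0 in both groups, at a summed 2.67 to 8.05 CPM in Myc_Utx and 3.89 to 17.7 CPM in Myc_p53 lines over 6 genes including Alb. The 5 cholangiocyte markers summed to 510 to 1441 and 153 to 1462 CPM, and the 7 endothelial markers to 0.223 to 0.936 and 0.371 to 1.42 CPM. The 10 macrophage markers summed to 2.79 to 5.99 CPM in Myc_Utx and 39.9 to 108.1 CPM in Myc_p53 lines, and 7 of the 10 were lower in every Myc_Utx line than in every Myc_p53 line. Of the genes kept for testing below, 20.9% were lower in that way.

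Of the 48 Wnt genes, 3 fell in Myc_Utx relative to Myc_p53 lines and none rose. The 3 were the ligand Wnt10b and the secreted antagonists Sfrp4 and Dkk3. They were found with the quasi-likelihood F test of edgeR at an adjusted p under 0.05 over 11510 genes tested, among which 27 of the Wnt genes passed the filter on low counts. The 3 are 11.1% of the 27, where the background for lower genes is 7.69% of all genes tested and that for higher genes 6.99%. The median log2 fold change (Myc_Utx over Myc_p53) of the 27 was -0.15, beside -0.01 over all genes tested, with 12 values above 0 and 15 below. At an unadjusted p under 0.05 there were 2 higher and 5 lower of the 27, where 4026 of all 11510 genes tested had such a p in either direction. DESeq2 and limma-voom also called 0 higher. In 5 of the 27, all lower, the groups did not overlap, against a background of 20.9% of all genes tested with non-overlapping groups in that direction, 21.1% in the other and 42% in either. Sfrp4 and Dkk3 passed the filter only through the Myc_p53 lines, so these counts and the median do not support a direction for the family.

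**Figure D1:**
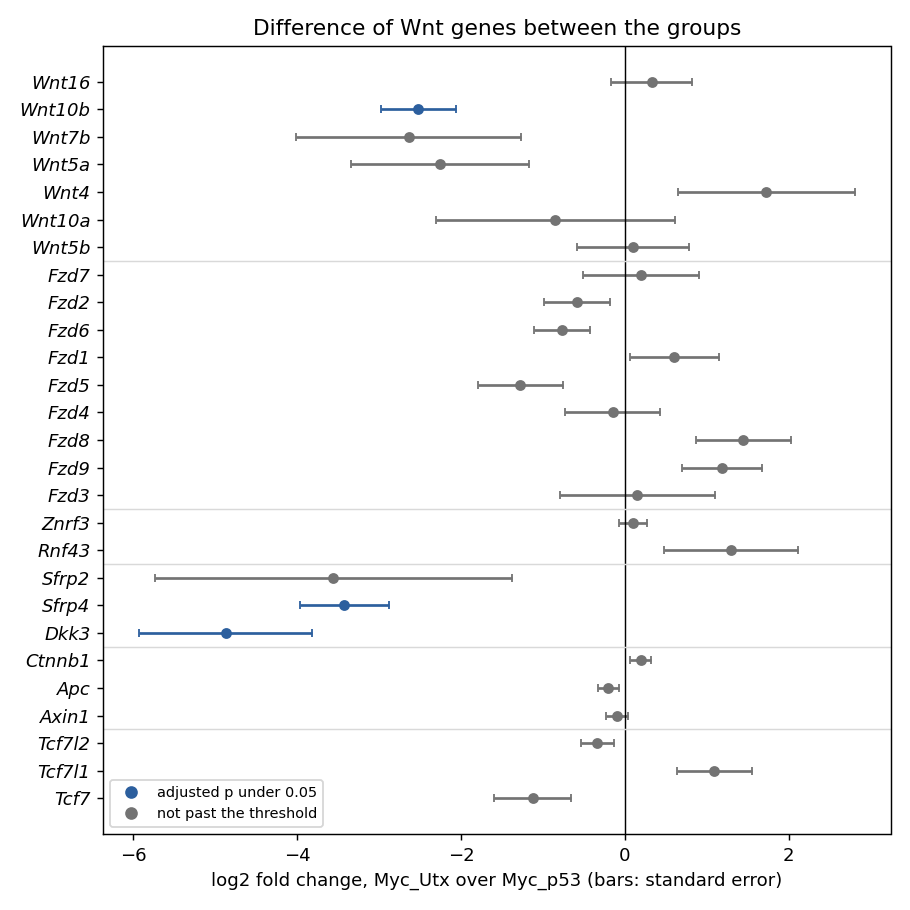
The log2 fold change of Myc_Utx over Myc_p53 lines (horizontal axis) is plotted for the 27 Wnt genes that passed the filter, ordered by role, with bars of 1 standard error on each side. Wnt10b, Sfrp4 and Dkk3 are drawn in blue as the genes with an adjusted p under 0.05, and the other 24 in grey.

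Wnt10b, a canonical ligand known for holding back fat cell formation, fell in Myc_Utx lines. It was counted 24, 94 and 41 times in Myc_Utx 2A, 2B and 2D and 329, 391 and 403 times in Myc_p53 1, 2 and 3. These counts correspond to 4.79, 17.6 and 9.13 CPM against 52.0, 72.5 and 57.5 CPM. Every Myc_Utx line lay below every Myc_p53 line, and the lowest Myc_p53 value was well above the highest Myc_Utx value. The means were 10.5 ± 6.52 (SD, n = 3) and 60.6 ± 10.6 (SD, n = 3) CPM, a difference of -2.52 on the log2 scale (standard error 0.46, adjusted p = 0.0232). Its exons overlap no other annotated gene. The direction was the same without any one cell line, while the adjusted p passed the threshold in 3 of those 6 fits. It was 0.0630 without Myc_Utx 2A, 0.0948 without Myc_Utx 2D and 0.0679 without Myc_p53 3, fits in which only 0.00829%, 0.231% and 0.487% of all genes tested were lower. Since these are whole cultures, fewer cells that express a gene and less of its mRNA per cell cannot be told apart, for Wnt10b as for every gene below.

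Wnt10b lies on the minus strand of chromosome 15 at 98770712 to 98778150 (GRCm38), in head-to-head orientation with Wnt1, which starts 11706 bases away on the plus strand. Wnt1, the founding mammalian member of the family, was counted 0, 0 and 0 times in Myc_Utx lines and 0, 2 and 1 times in Myc_p53 lines. The neighbours thus differed in level, with Wnt10b counted 24 times or more in all 6 lines and Wnt1 at or under 3 counts in each. The 250 bases before each RefSeq start are shown because they form the outer ends of the interval between the expressed neighbour and the one near 0. They are written from 5′ to 3′ on the strand of the gene in assembly GRCm38.p6, with CpG dinucleotides in capitals. The window of Wnt10b is chr15:98778151-98778400 (minus strand) and that of Wnt1 is chr15:98789607-98789856 (plus strand).
Wnt10b: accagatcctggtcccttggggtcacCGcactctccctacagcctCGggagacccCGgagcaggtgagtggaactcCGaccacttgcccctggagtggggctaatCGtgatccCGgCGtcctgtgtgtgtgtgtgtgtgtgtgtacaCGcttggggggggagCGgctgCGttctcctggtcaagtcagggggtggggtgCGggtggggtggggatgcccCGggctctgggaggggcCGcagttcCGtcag
Wnt1: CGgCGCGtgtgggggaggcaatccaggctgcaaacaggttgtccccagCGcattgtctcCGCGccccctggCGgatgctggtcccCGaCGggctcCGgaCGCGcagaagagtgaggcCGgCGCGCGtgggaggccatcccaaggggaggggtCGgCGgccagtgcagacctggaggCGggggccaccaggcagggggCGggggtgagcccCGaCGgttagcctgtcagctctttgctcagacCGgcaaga
The Wnt10b window holds 14 CpG dinucleotides with an observed over expected ratio of 0.522, and the Wnt1 window holds 23 with a ratio of 0.735. In this pair, the gene at or under 3 counts had the window richer in CpG.

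Of the 3 other pairs of neighbouring Wnt genes, 2 held a gene counted more often than its neighbour and 1 had no count at all. Wnt6 and Wnt10a lie 6193 bases apart on chromosome 1. Wnt6 was counted 1, 13 and 1 times in Myc_Utx lines and 1, 5 and 18 times in Myc_p53 lines, whereas Wnt10a was counted 1, 210 and 10 times and 137, 27 and 343 times. Both were highest within their group in Myc_Utx 2B and in Myc_p53 3. Wnt3a and Wnt9a lie 16175 bases apart on chromosome 11, where Wnt3a had no count and Wnt9a was counted 3, 5 and 3 times against 38, 4 and 29 times. Wnt3 and Wnt9b, 24328 bases apart on the same chromosome, had no count in any line.

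Of the 19 ligands, 7 passed the filter and 12 did not. Wnt3, Wnt3a, Wnt8a, Wnt8b and Wnt9b had no count in any line, and Wnt1 stayed at or under 3 counts. Wnt2, which liver sinusoidal endothelium makes in the intact organ, was counted 0, 2 and 1 times in Myc_Utx lines and 0, 13 and 14 times in Myc_p53 lines, in cultures where endothelial markers were near 0. Wnt11 was counted once in each Myc_Utx line and 1, 14 and 6 times in Myc_p53 lines. Wnt7a had 1, 0 and 0 counts against 4, 0 and 15, and Wnt2b had 4, 5 and 0 against 8, 6 and 7. None of these low ligands was tested, and each had at most 1 count in some Myc_Utx line.

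Per length, Wnt16 had the highest mean level among ligands in Myc_Utx lines and Wnt10b in Myc_p53 lines, at 21.1 and 17.8 CPM per kb of transcript. Wnt16, known for its part in cortical bone thickness, was present at 142.4, 34.3 and 99.1 CPM in Myc_Utx 2A, 2B and 2D and at 91.8, 73.2 and 54.9 CPM in Myc_p53 1, 2 and 3. The groups overlapped, with the highest and the lowest value both among Myc_Utx lines (log2 fold change 0.33, standard error 0.49, adjusted p = 0.667). Without Myc_Utx 2A its log2 fold change turned to -0.12.

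On this per-length scale, the 19 ligands summed to 45.1, 34.7 and 41.1 CPM per kb in Myc_Utx lines and 58.6, 47.7 and 77.2 CPM per kb in Myc_p53 lines. The sums did not overlap, at 40.3 ± 5.22 (SD, n = 3) and 61.2 ± 14.9 (SD, n = 3), and no test was run on them. The gap rested on Wnt10b, since without it (a check chosen after the data had been seen) the sums were 43.7, 29.5 and 38.4 CPM per kb in Myc_Utx lines and 43.3, 26.4 and 60.3 CPM per kb in Myc_p53 lines, which overlapped. Wnt16 made up 50.1% ± 25.3 (SD, n = 3) of the ligand sum in Myc_Utx and 29.2% ± 11.1 (SD, n = 3) in Myc_p53 lines, with ranges that overlapped. Wnt10b made up 8.19% ± 6.07 (SD, n = 3) and 30.9% ± 12.1 (SD, n = 3), with ranges of 3.12% to 14.9% and 21.9% to 44.7% that did not overlap. Wnt10a led in Myc_Utx 2B with 45.9% of the ligand sum and in Myc_p53 3 with 25.7%, and Wnt10b led in Myc_p53 2 with 44.7%. Wnt16 led in the remaining 3 lines, so the leading ligand changed from line to line within both groups.

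**Figure D2:**
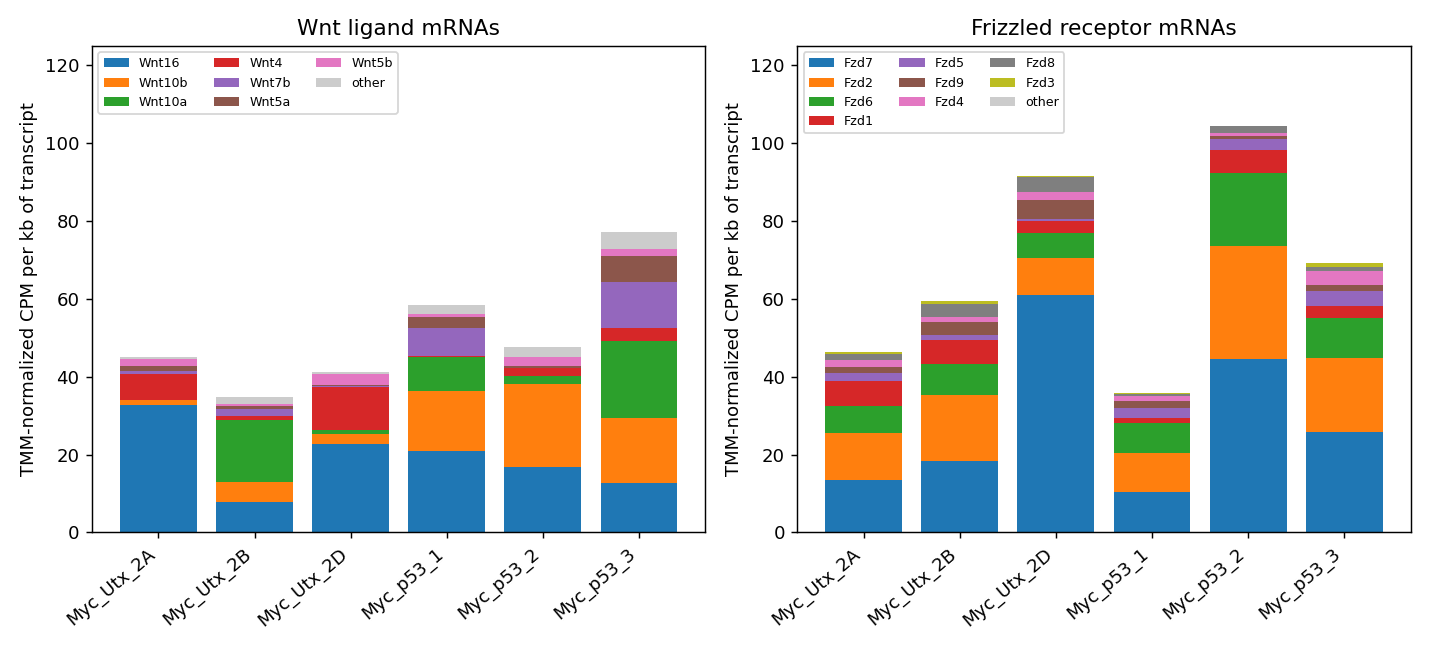
Stacked bars give the TMM-normalized CPM per kb of transcript (vertical axes) of each Wnt ligand (left) and frizzled receptor (right) in the 6 cell lines. The ligand at the base, Wnt16, and the one above it, Wnt10b, change places in size between lines, while Fzd7 and Fzd2 form the largest receptor segments in every line.

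The Wnt16 window is shown as that of the ligand with the largest mean share in Myc_Utx lines. It lies at chr6:22287977-22288226 on the plus strand, written and marked as the windows above, and holds 9 CpG dinucleotides (observed over expected ratio 0.420).
Wnt16: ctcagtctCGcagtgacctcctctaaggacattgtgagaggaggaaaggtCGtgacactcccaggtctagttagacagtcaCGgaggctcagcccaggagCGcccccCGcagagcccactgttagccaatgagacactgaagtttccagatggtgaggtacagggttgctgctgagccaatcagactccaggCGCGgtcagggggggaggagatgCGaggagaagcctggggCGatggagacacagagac
Across the 33 Wnt genes with RefSeq promoter entries, 43 windows of 250 bases had a median CpG ratio of 0.755 and a median GC content of 66.8%, beside 0.373 and 52.4% over all 32851 windows, which also hold windows of noncoding genes. The TCF/LEF motif CTTTGAT, read on both strands, occurred in 2 of the 43 windows (4.65%, beside 3.21% of all windows), at position -51 of Wnt11 and -71 of Wnt5b relative to the start. The palindromic E-box CACGTG, which Myc and its partners can bind, occurred in 4 windows (9.30%, beside 6.02%), of Fzd9, Lef1, Wif1 and Wnt9a. Neither motif is written in the Wnt10b, Wnt1 or Wnt16 window.

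The other 5 ligands that passed the filter varied widely within groups, and none passed the test. Wnt7b, an epithelial ligand, was present at 3.39, 8.24 and 1.78 CPM in Myc_Utx lines and 31.6, 0.185 and 52.6 CPM in Myc_p53 lines. Myc_p53 2 lay below every Myc_Utx line and the other 2 Myc_p53 lines above them (log2 fold change -2.64, standard error 1.37, adjusted p = 0.219). Without Myc_p53 2 the log2 fold change was -3.21 with an adjusted p of 0.0289, so this line decided the call. Wnt5a, the main ligand of the beta-catenin-independent branch, was present at 10.2, 5.06 and 0.891 CPM against 21.8, 3.34 and 52.3 CPM, again lowest among Myc_p53 lines in line 2 (log2 fold change -2.26, standard error 1.09, adjusted p = 0.193).

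Wnt10a, a ligand of tooth and hair development, was present at 0.199, 39.3 and 2.23 CPM against 21.6, 5.005 and 48.9 CPM, and its groups overlapped (log2 fold change -0.85, standard error 1.46, adjusted p = 0.707). Wnt4, needed for kidney and ovary development, was present at 27.1, 4.12 and 46.1 CPM against 0.790, 8.90 and 13.5 CPM. It was higher in 2 of 3 Myc_Utx lines than in any Myc_p53 line, within a wide spread (log2 fold change 1.73, standard error 1.08, adjusted p = 0.296). Wnt5b ranged from 1.12 to 7.57 CPM in Myc_Utx and from 2.37 to 5.93 CPM in Myc_p53 lines (log2 fold change 0.10, adjusted p = 0.934).

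**Figure D3:**
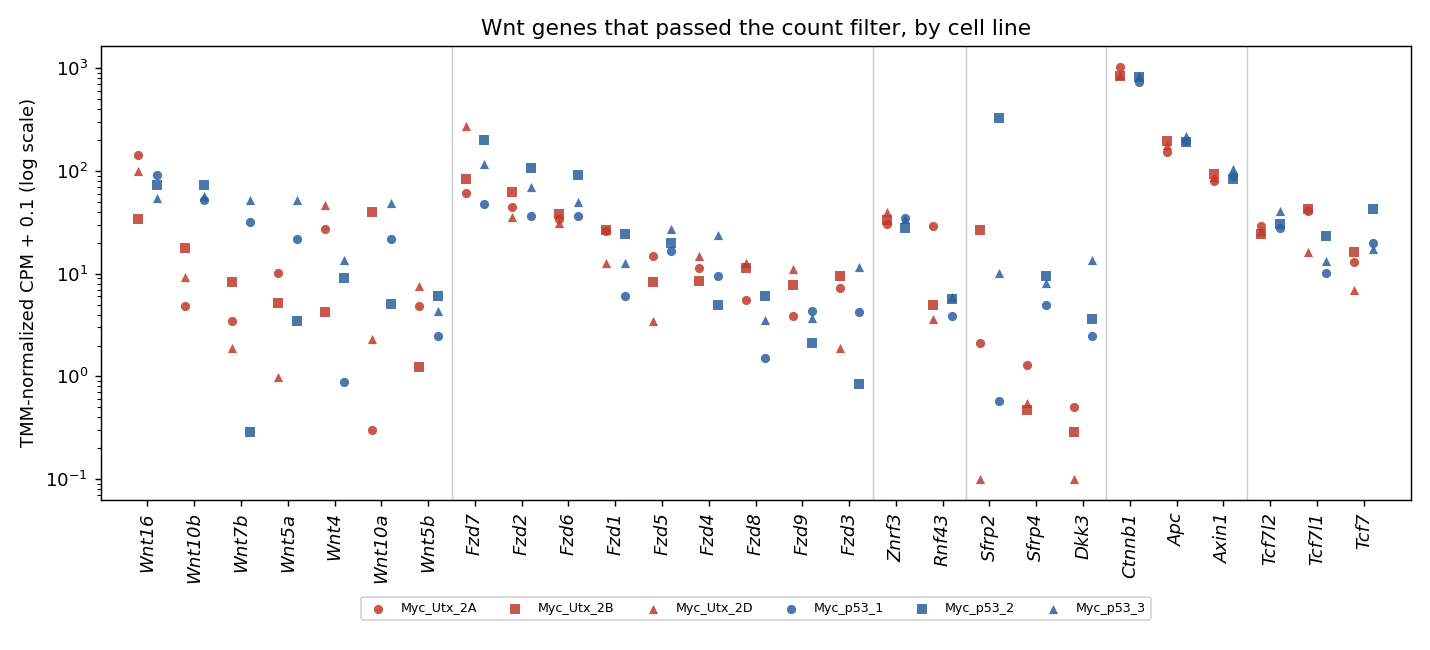
TMM-normalized CPM plus 0.1 on a log scale (vertical axis) is plotted for each Wnt gene that passed the filter, with Myc_Utx lines in red and Myc_p53 lines in blue, a symbol per line and grey rules between roles. Points of Wnt7b, Wnt10a and Sfrp2 are spread widely within a colour, while those of Ctnnb1, Apc, Axin1 and Znrf3 lie close together.

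Of the 10 frizzled receptors, 9 passed the filter and none was called. Fzd10 was the exception, with 2 counts in Myc_p53 3 and none elsewhere. Fzd7, a receptor often linked to stem cells, had the highest level per length in all 6 lines and Fzd2 the next highest in all 6. Fzd7 was present at 61.2, 82.8 and 276.1 CPM in Myc_Utx lines and 47.6, 201.7 and 117.1 CPM in Myc_p53 lines, so its groups overlapped (log2 fold change 0.20, standard error 0.71, adjusted p = 0.863). Its sign turned without Myc_Utx 2D (-0.74) and without Myc_p53 1 (-0.20). It made up 42.1% ± 21.2 (SD, n = 3) of the receptor sum in Myc_Utx and 36.4% ± 6.72 (SD, n = 3) in Myc_p53 lines. Fzd2, at 44.1, 62.4 and 35.4 CPM against 36.7, 106.6 and 69.9 CPM, differed by -0.59 on the log2 scale (standard error 0.41, adjusted p = 0.346). The receptor sum was 65.8 ± 23.2 (SD, n = 3) in Myc_Utx and 69.9 ± 34.3 (SD, n = 3) CPM per kb in Myc_p53 lines, with overlapping ranges.

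Fzd5, a receptor that Wnt7b and Wnt5a can use, was the single receptor whose groups did not overlap. It was present at 14.8, 8.24 and 3.34 CPM in Myc_Utx lines and 16.6, 20.02 and 27.4 CPM in Myc_p53 lines. The highest Myc_Utx value lay close to the lowest Myc_p53 value, and the difference did not pass the test (log2 fold change -1.28, standard error 0.52, adjusted p = 0.137, unadjusted p = 0.0461). A predicted gene, Gm38058, covers 17.8% of its exon bases on the other strand, and whether counting used strand is not given in the sources used here. Fzd8 (log2 fold change 1.45, standard error 0.58, adjusted p = 0.134) and Fzd9 (1.18, standard error 0.49, adjusted p = 0.142) had the largest positive values among receptors, with overlapping groups. Fzd6 differed by -0.77 (adjusted p = 0.162), and Fzd1, Fzd3 and Fzd4 lay between -0.15 and 0.60.

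Both receptor ligases were expressed in all lines. Znrf3 was among the steadiest of the Wnt genes, at 30.5, 33.3 and 39.6 CPM in Myc_Utx lines and 34.8, 27.99 and 33.6 CPM in Myc_p53 lines (log2 fold change 0.10, standard error 0.17, adjusted p = 0.705). Rnf43 was present at 28.9, 4.87 and 3.56 CPM against 3.79, 5.56 and 5.85 CPM. Its high value came from Myc_Utx 2A, without which the log2 fold change of 1.29 (adjusted p = 0.299) turned to -0.24.

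The secreted antagonists were low or absent in most lines, and of the 9 only 3 passed the filter. Both called antagonists, Sfrp4 and Dkk3, were lower in Myc_Utx lines. They passed the filter only through the Myc_p53 lines, so their shared direction does not support one for the antagonists. Sfrp4, which binds Wnt ligands outside the cell, was counted 6, 2 and 2 times in Myc_Utx lines and 31, 51 and 56 times in Myc_p53 lines. This gave 1.197, 0.374 and 0.445 CPM against 4.90, 9.45 and 7.98 CPM, and the groups did not overlap. The means were 0.672 ± 0.456 (SD, n = 3) and 7.45 ± 2.32 (SD, n = 3) CPM, a difference of -3.42 on the log2 scale (standard error 0.54, adjusted p = 0.0185). Sfrp4 lies on chromosome 13 at 19623104 to 19632994. Without any one Myc_Utx line or without Myc_p53 3, its adjusted p was 0.0614 (2A), 0.0709 (2B), 0.0808 (2D) and 0.0605 (Myc_p53 3), with the direction kept. In these fits at most 0.487% of all genes tested were lower.

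Dkk3, a divergent Dickkopf protein for which co-receptor binding is not established, was counted 2, 1 and 0 times in Myc_Utx lines and 15, 19 and 95 times in Myc_p53 lines. It stayed at or under 3 counts in every Myc_Utx line and above that in every Myc_p53 line. With the Myc_Utx lines set at 3 counts each, it was at least 10.6-fold lower there (means 0.195 ± 0.1996 and 6.48 ± 6.15 CPM, SD, n = 3, adjusted p = 0.0338). Most of the Myc_p53 mean came from Myc_p53 3 at 13.5 CPM, beside 2.37 and 3.52 CPM in lines 1 and 2. Its adjusted p was 0.0876 without Myc_Utx 2A, 0.109 without 2B, 0.107 without 2D, 0.0747 without Myc_p53 3 and 0.0704 by limma-voom. In those fits without a line, at most 0.487% of all genes tested were lower. Dkk3 lies on chromosome 7 at 112116017 to 112159057.

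Sfrp2 and Sfrp1 were high in single lines. Sfrp2 was counted 10, 141 and 0 times in Myc_Utx lines and 3, 1786 and 71 times in Myc_p53 lines. Myc_p53 2 thus held 331.0 CPM, beside 0.474 and 10.1 CPM in lines 1 and 3, and the groups overlapped (log2 fold change -3.56, standard error 2.18, adjusted p = 0.287). Without Myc_p53 2 the log2 fold change turned to 0.84. The antisense gene Gm26771 covers 16.1% of the Sfrp2 exon bases. Sfrp1 was counted 0, 2 and 0 times against 2, 78 and 19 times, too few for the filter. Its mean was at least 9.56-fold lower in Myc_Utx lines set at 3 counts each, but Myc_p53 1 was itself under 3 counts and the groups overlapped. Sfrp1 was chosen for description after its values were seen, because DESeq2, which kept it, called it lower. Dkk1, Dkk4 and Sfrp5 were at or under 3 counts in every line, Dkk2 reached 8 counts in Myc_p53 3, and Wif1 reached 4 counts in Myc_Utx 2A.

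**Figure D4:**
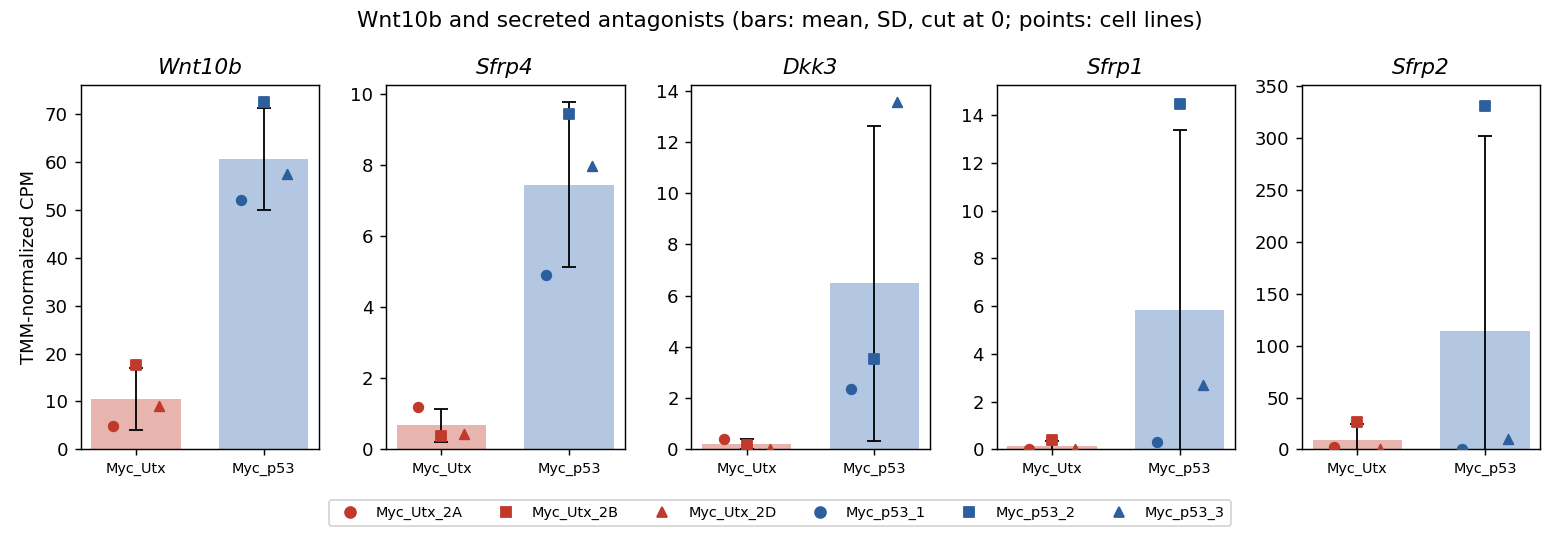
TMM-normalized CPM (vertical axes, a separate scale per gene) of Wnt10b and 4 secreted antagonists is drawn with bars for group means, error bars for the SD cut at 0, and a point per cell line. The Myc_Utx points of Wnt10b, Sfrp4 and Dkk3 lie below all Myc_p53 points, whereas the Myc_p53 bars of Sfrp1 and Sfrp2 rest on Myc_p53 2.

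Between the groups, the macrophage markers moved in the direction of the 3 called genes. All 3 were lower in every Myc_Utx line, as were 7 of the 10 macrophage markers, 2 of the 5 cholangiocyte markers and 20.9% of all genes tested. Of the 3, Sfrp4 and Dkk3 passed the filter only through the Myc_p53 lines. The part of the macrophage markers in these results was not tested. Within the Myc_p53 group the marker sum was 98.6, 39.9 and 108.1 CPM in lines 1, 2 and 3. It was lowest in line 2, where Wnt10b and Sfrp4 were highest, and highest in line 3, as Dkk3 was.

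Other markers moved with the spread among Myc_p53 lines. The fibroblast and stellate cell markers summed to 42.0, 3170 and 722 CPM in Myc_p53 1, 2 and 3, and to 1953 to 2693 CPM in Myc_Utx lines. The cholangiocyte markers summed to 1380, 153 and 1462 CPM in Myc_p53 1, 2 and 3. Myc_p53 2, with the highest fibroblast and lowest cholangiocyte sum, had the lowest Wnt7b, Wnt5a and Wnt10a and the highest Sfrp1, Sfrp2, Fzd2, Fzd6 and Fzd7 of its group. The same line had the highest Wnt10b and Wnt5b and the lowest Fzd3, Fzd4 and Fzd9, so neither ligands nor receptors moved as a set. Among the 27 tested genes, Myc_p53 2 was the highest of its group for 11 and the lowest for 9. Myc_p53 3 was the highest for 13 and the lowest for 2, and Myc_p53 1 the highest for 3 and the lowest for 16. Myc_p53 2 was thus not the most extreme line by these counts. The Myc_Utx lines, also with high fibroblast sums, had Sfrp1 at 0, 2 and 0 counts and Sfrp2 at 10, 141 and 0 counts. The part of cell state in these differences was not tested.

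The Wnt genes were more uneven between lines of a group than genes at large. The highest line exceeded the lowest more than 5-fold for 7 of the 27 tested (25.9%) among Myc_p53 lines, beside 7.06% of all genes tested, and for 7 of 27 among Myc_Utx lines, beside 4.91%. Wnt10a, Wnt4, Wnt5a, Fzd3 and Sfrp2 were among them in both groups. The ratio was 681 for Sfrp2 and 108 for Wnt7b among Myc_p53 lines, and 64.5 for Wnt10a among Myc_Utx lines. The median level of the 27 was 19.2 CPM, beside 38.5 CPM over all genes tested, and the part of this lower level in the spread was not tested.

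None of the core genes of the canonical relay passed the test, and the fitted differences of Ctnnb1, Apc and Axin1 lay between -0.20 and 0.19 on the log2 scale. Beta-catenin mRNA (Ctnnb1) was present at 1038, 835 and 860 CPM in Myc_Utx lines and 727, 815 and 849 CPM in Myc_p53 lines. The groups overlapped (log2 fold change 0.19, standard error 0.13, adjusted p = 0.326), and 14.6% of its exon bases are shared with Ulk4 on the other strand. Apc, the scaffold of the destruction complex, was present at 153.6, 196.6 and 178.6 CPM against 197.8, 192.4 and 217.0 CPM (log2 fold change -0.20, standard error 0.13, adjusted p = 0.299). Its sign was positive with offsets for gene length (0.13). Axin1 was present at 79.4, 94.2 and 86.4 CPM against 88.5, 84.3 and 104.1 CPM, again with overlapping groups (log2 fold change -0.09, standard error 0.13, adjusted p = 0.658). These transcripts give no measure of beta-catenin protein.

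Axin2, which beta-catenin switches on in many tissues, was near absent. It was counted 0, 2 and 0 times in Myc_Utx lines and 3, 15 and 3 times in Myc_p53 lines, and did not pass the filter. Its highest value was 2.78 CPM in Myc_p53 2. Per kb of transcript, the means of Axin2 were 0.0227 and 0.223 CPM in Myc_Utx and Myc_p53 lines, beside 22.6 and 24.1 CPM for its relative Axin1. The Axin2 window is shown as that of a target gene with almost no reads. It lies at chr11:108920099-108920348 on the plus strand, holds 24 CpG dinucleotides in capitals (observed over expected ratio 0.860), and contains neither CTTTGAT nor CACGTG.
Axin2: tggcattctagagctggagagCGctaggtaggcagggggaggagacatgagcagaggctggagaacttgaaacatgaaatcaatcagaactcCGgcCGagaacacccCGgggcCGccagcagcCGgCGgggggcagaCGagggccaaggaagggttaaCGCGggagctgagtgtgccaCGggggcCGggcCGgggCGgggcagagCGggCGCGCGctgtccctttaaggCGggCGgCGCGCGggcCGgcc

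Of the 4 TCF/LEF factors, 3 passed the filter and none passed the test. Tcf7, which encodes TCF1, was present at 13.0, 16.3 and 6.90 CPM in Myc_Utx lines and 19.6, 42.6 and 17.1 CPM in Myc_p53 lines. Its groups did not overlap, but the highest Myc_Utx and lowest Myc_p53 values were close (log2 fold change -1.13, standard error 0.47, adjusted p = 0.142). Tcf7l1, which encodes the mainly repressive TCF3, was present at 40.5, 42.1 and 16.0 CPM against 10.1, 23.0 and 13.3 CPM, with overlapping groups (log2 fold change 1.09, standard error 0.46, adjusted p = 0.148). Tcf7l2, which encodes TCF4, was present at 28.7, 24.2 and 26.1 CPM against 27.8, 30.6 and 41.1 CPM (log2 fold change -0.33, standard error 0.20, adjusted p = 0.273). Lef1, itself a common target of the pathway, was counted 2, 5 and 0 times against 2, 0 and 2 times.

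Beyond the 48, a list of 138 other Wnt pathway genes held 95 that were tested, of which 6 were higher and 5 lower in Myc_Utx lines (6.32% and 5.26%, near the background of 6.99% and 7.69%). Lgr4, a receptor that keeps Rnf43 and Znrf3 away from frizzled receptors when R-spondin is bound, rose (206.4 ± 53.9 against 76.8 ± 18.5 CPM, SD, n = 3, log2 fold change 1.43, standard error 0.26, adjusted p = 0.0233). Aes, a corepressor of the groucho family, rose by 0.99 (adjusted p = 0.0274) and Snx3, a sorting nexin that recycles the Wnt carrier Wls, by 0.69 (adjusted p = 0.0188) on the log2 scale. Atp9a, a flippase active in the same recycling, fell from 10.6 ± 3.19 to 0.946 ± 0.750 CPM (SD, n = 3, log2 fold change -3.45, adjusted p = 0.0206). The other lower genes were Intu (-1.04), the beta-catenin coactivator Bcl9 (-1.03), Sox4 (-0.79) and the tankyrase Tnks (-0.55), and secretion, relay and nuclear genes were found in both directions. With offsets for gene length, 4 of the calls named here were lost: Tnks (-0.23, adjusted p = 0.163), Bcl9 (-0.83, adjusted p = 0.0567), Intu (-0.87, adjusted p = 0.0705) and Snx3 (0.44, adjusted p = 0.0544). The call of a higher gene not named here was lost too (0.40, adjusted p = 0.0691). Intu also missed the threshold whichever single line was left out (adjusted p 0.0687 to 0.120), as did the higher genes not named here. Aes and Sox4 passed it in 1 of 6 such fits each (adjusted p up to 0.0948 and 0.126). Snx3, Bcl9 and Tnks passed it in 2 of 6 each. The adjusted p of Lgr4 ranged from 0.0256 to 0.0784 with single lines left out, and that of Atp9a from 0.0319 to 0.0896. Without Myc_Utx 2A, 2B or 2D or Myc_p53 3, few genes of any kind passed. At most 0.538% of all genes tested were then higher and at most 0.487% lower, so these losses are not particular to the genes named.

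Of 40 common or liver zonation targets of beta-catenin, 18 were tested (45.0%, beside 21.5% of all rows of the table) and 14 were at or under 3 counts in all lines. Sox4 alone passed the test, which is 5.56% of the 18 beside the background of 7.69%. The median log2 fold change of the 18 was 0.33.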

How the data were processed

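RNA sequencing of 6 mouse liver tumour cell lines was analysed, grouped by the genotype in their labels into 3 Myc_Utx and 3 Myc_p53 lines. The authors deposited raw counts of reads per Ensembl gene, not normalized, with a transcript length for each gene. The submitters' processing notes name Trimmomatic 0.36, STAR 2.5.3a, featureCounts 1.6.3, DESeq2 1.20.0 and the builds GRCm38 and mm10. The paper's methods instead name HTSeq, a human build and a guide RNA against Mll3 for this experiment. The deposited coordinates equal those of GENCODE M21 for 95.9% of rows and for 44 of the 48 Wnt genes. Whether counting used strand, which decides how reads shared with antisense genes were assigned, is not given in the sources used here.

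Counts were analysed with edgeR 4.0.16 in R 4.3.3: genes were kept by filterByExpr with a minimum count of 10, libraries were scaled with TMM, and the 2 genotypes were contrasted by the quasi-likelihood F test, with Benjamini-Hochberg adjustment over all 11510 genes tested. The standard error was taken as |log2 fold change| over the root of F. Where no line of a group exceeded 3 counts, the group was set to that floor and the fold given as a lower bound, which covers counting error only. Sums, shares and ranks of ligands and receptors, and Axin2 beside Axin1, were given as CPM per kb of the deposited transcript length. Neighbouring genes were set side by side as counts. For the ratio of highest to lowest line, the lowest value was taken as no less than the floor. Promoter windows are from RefSeq (GRCm38.p6), with entries for 33 of the 48 genes. The procedure was tested on simulated counts.

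The Wnt genes and the pathway and marker lists were chosen with earlier results of these data known. Values by line are given for genes with an adjusted p under 0.05, for genes at the floor in one group and above it in every line of the other, for the core intracellular genes and for neighbouring Wnt genes. Other Wnt genes were described by line where 1 line or their rank decided a statement, which was chosen after their values were seen. From the other pathway list, at most the 3 largest changes in a direction, or all of 5 or fewer, are named. Alternatives were no filter, at least 10 counts in every line, DESeq2 size factors, total counts only, DESeq2 1.42.0, limma-voom (limma 3.58.1), offsets for gene length (splines with 5 degrees of freedom, robust regression of MASS 7.3.60.0.1) and leaving out each line in turn.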

Additional observations from a re-analysis of the deposited data

How the results depend on the processing

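The number of Wnt genes called lower was 3 in the reported fit, 1 with at least 10 counts required in every line (Wnt10b, since Sfrp4 and Dkk3 then leave the test) and 0 to 5 with single lines left out. It was 0 without Myc_Utx 2A, without Myc_Utx 2D and without Myc_p53 3, and 5 without Myc_p53 2, where Wnt7b and Wnt9a joined. In the fits without a call, in that order, 6 of 31, 4 of 31 and 4 of 27 Wnt genes tested had an unadjusted p under 0.05. The share of all genes with such a p was not computed for those fits. DESeq2 called 4 of 33 Wnt genes tested lower, adding Sfrp1, and limma-voom called 2 of 27, without Dkk3. The share of all genes tested called lower was 11.1% by DESeq2 and 5.47% by limma-voom. It was 9.37% without Myc_p53 2 and 7.41% with at least 10 counts in every line. No Wnt gene was called higher under any of these alternatives. Of other pathway genes, 3 were called higher with total counts only (6 as reported) and 0 to 6 with single lines left out. Total counts only called 5.22% of all genes tested higher, beside 6.99% as reported. Called lower were 14 of 108 tested by DESeq2 and 2 of 95 with gene length offsets (5 of 95 as reported), and 0 to 8 with single lines left out. Of all genes tested, 11.1% were lower by DESeq2, 5.13% with gene length offsets and 7.69% as reported. That share was 9.37% without Myc_p53 2, the fit that called 8. Counts of 0 for other pathway genes came from leaving out Myc_Utx 2A, 2B or 2D or Myc_p53 3, fits that called 3, 43, 43 and 63 genes higher and 1, 38, 28 and 57 genes lower over all genes tested.

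Directions turned in genes that had not passed the test. With gene length offsets, Apc had a log2 fold change of 0.13, Wnt5b of -0.0136 and Fzd4 of 0.0110, and with limma-voom Wnt5b had -0.20 and Fzd4 0.0262. With single lines left out the log2 fold change ran from -4.37 to 0.0529 for Wnt10a, -0.12 to 0.74 for Wnt16, -0.49 to 0.57 for Wnt5b, -0.35 to 1.31 for Fzd3, -0.53 to 0.68 for Fzd4, -0.74 to 0.76 for Fzd7, -0.24 to 1.75 for Rnf43 and -6.74 to 0.84 for Sfrp2. The cause was not tested. Without a filter, the all-gene median moved to -0.23 on the log2 scale. No paired analysis was possible because the 2 groups share no replicate numbers. With 3 lines a group and few counts for many Wnt genes, a call that was not made does not show equal levels.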
